A study of Mus musculus with 10 samples.

Results

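Fgf21, Leap2 and 8 further genes for hormones and hormone-binding proteins that the liver secretes were followed across 10 mouse liver libraries. The 10 genes are Fgf21, Leap2, Gdf15, Inhbe, Fst, Igfbp1, Igfbp2, Igfbp4, Fetub and Selenop, taken by symbol from the 29657 genes of the deposited table. They were chosen with their values in this comparison already known, so their differences between the groups are given below as a description and not as a test. All 10 stood at or above 0.5 FPKM in every library, and so all 10 were among the 13471 genes that passed the filter on low values.

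The libraries came from the livers of C57BL/6 mice that all ate a choline-deficient, amino acid-defined, high-fat diet (CDAHFD), a feed that leads to steatohepatitis, for 8 weeks. The 5 control libraries are labelled wild type and came from mice injected intravenously with AAV8-NC, an adeno-associated virus carrying a negative control. The 5 other libraries came from mice injected with AAV8-TBG-galectin-3 and are labelled as a hepatocyte-specific knockdown of galectin-3. TBG is a promoter active in hepatocytes, the insert of the vector is not described, and no group on normal chow or without a virus was analysed here. The labels number the libraries 1 to 5 in each group without saying that each is 1 animal, so p-values measure the spread between these samples. Values are FPKM, fragment counts scaled by transcript length and by library total, which allow levels of different genes to be set side by side.

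The targeted transcript, Lgals3 (ENSMUSG00000050335), which encodes galectin-3, averaged 70.8 ± 22.9 FPKM over the controls, against 74.2 ± 20.1 FPKM for the remaining libraries (mean ± SD, n = 5 each). Its log2 difference was 0.08 with a standard error of 0.25 (adjusted p = 0.856 in the limma fit over all genes), so whole liver did not show the labelled decrease and the group is called the labelled knockdown here. Galectin-3 is also made by macrophages, and fewer cells of a type cannot be told apart from less RNA per cell in bulk tissue. The summed level of 18 Kupffer cell and macrophage markers was 545 to 845 FPKM in the control libraries and 293 to 653 FPKM in the labelled knockdown, and 2 of the 17 tested were lower. The summed level of 11 hepatocyte markers was 38990 to 43820 FPKM against 34738 to 44307 FPKM, with 2 of 11 higher and 4 of 11 lower. Among markers of stellate cells 3 of 15 were lower, among those of sinusoidal endothelium 1 of 11, and among those of cholangiocytes, lymphocytes and neutrophils 0 of 7, 0 of 5 and 0 of 3 passed in either direction. Over all tested genes 7.13% passed as higher and 9.65% as lower, at an adjusted p under 0.05 in the limma fit. Median log2 differences were -0.46 for cholangiocyte markers, -0.33 for macrophage, -0.27 for endothelial, -0.13 for stellate cell and -0.09 for lymphocyte markers. They were 0.09 for hepatocyte and 0.12 for neutrophil markers, beside -0.04 over all tested genes. No marker of these lists was at 0 in all 10 libraries. The libraries also differed in how values followed transcript length. A doubling in length went with a departure from the gene mean of 0.03 ± 0.01 on the log2 scale in the control libraries and of -0.03 ± 0.02 in the labelled knockdown, with no overlap between the groups. The part of the cell markers and of the length trend in the results on the hormones was not tested, except that values with the length trend removed are given where they bear on a gene.

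Hepatocytes release these proteins into the blood, where they carry signals about nutrient supply and stress to other organs. FGF21 acts through an FGF receptor together with the co-receptor beta-Klotho, LEAP2 blocks the ghrelin receptor, and GDF15 acts on a receptor in the hindbrain that lowers food intake. Activin E, the product of Inhbe, belongs to the TGF-beta family and follistatin binds activins, whereas the IGF-binding proteins hold the insulin-like growth factors in the circulation.

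Fgf21 and Leap2 were the members whose levels separated the groups completely. In the fit over all genes, limma on log2(FPKM + 1) with Benjamini-Hochberg adjustment, a gene was called at an adjusted p under 0.05. Of all tested genes 7.13% were called higher in the labelled knockdown and 9.65% lower, 16.8% in either direction. Of these calls 42.5% were on the higher side, and 54.3% with median-of-ratios scaling or 55.4% with the length trend removed. Of the 10 hormone genes 2 were called higher and 0 lower, a count from which nothing is read because the genes were picked on this contrast. Their median log2 difference was 0.16, beside -0.04 over all tested genes. Groups that did not overlap, with the labelled knockdown on the higher side, were found for 2 of the 10 and for 5.66% of all tested genes, and with it on the lower side for 0 of the 10 and 7.48% of all.

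**Figure D1:**
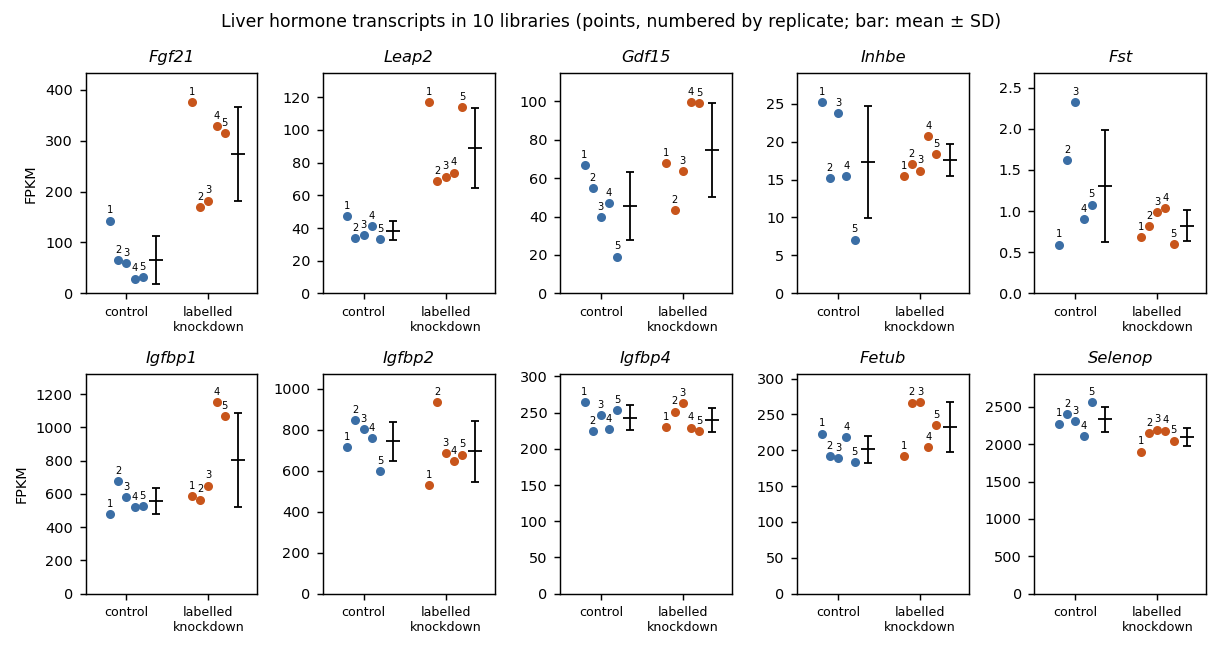
FPKM of each of the 10 liver hormone genes in every library, on linear axes that start at 0, with each library as a numbered point and bars for the mean ± SD of each group of 5. For Fgf21 and Leap2 every labelled knockdown library lies above every control library, and for the other 8 genes the groups overlap.

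By their mean level over the 10 libraries the genes ran from Selenop at 2211 FPKM, through Igfbp2 at 719, Igfbp1 at 681, Igfbp4 at 241, Fetub at 217, Fgf21 at 170, Leap2 at 63.7, Gdf15 at 60.1 and Inhbe at 17.5, to Fst at 1.06 FPKM. In the control libraries Igfbp1 (479 to 677 FPKM) and Igfbp2 (599 to 847 FPKM) overlapped, and so did Fgf21 (28.8 to 143 FPKM), Leap2 (33.3 to 47.4 FPKM) and Gdf15 (19.1 to 66.6 FPKM). The labelled knockdown libraries had the same ends of the order, Selenop and Fst, but there Igfbp1 stood above Igfbp2 by mean and Fgf21 above Igfbp4 and Fetub. Those neighbours also overlapped in range.

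Fgf21 (ENSMUSG00000030827) encodes a fasting and stress hormone of the FGF family that lacks strong binding to heparan sulphate and therefore reaches the blood. Control libraries 1 to 5 held 142.8, 65.6, 59.4, 28.8 and 31.3 FPKM. In the labelled knockdown they were 376, 168.8, 182.2, 328 and 314.8 FPKM in the same numbering. Every labelled knockdown library was above the highest control, control 1, which itself held more than any other control library. The means were 65.6 ± 46.2 and 274 ± 92.8 FPKM (SD, n = 5 each), a ratio of 4.18. The log2 difference was 2.22 with a standard error of 0.40. The spread between control libraries was wide, with a coefficient of variation of 70.4% against 33.9% in the labelled knockdown. With the length trend removed the log2 difference was 2.10, and it lay between 1.99 and 2.56 when each library was left out in turn.

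The stretch before the start of Fgf21 is shown because it holds letters of factors known to act on this gene. It is taken from RefSeq on GRCm38.p6, on the minus strand at chr7:45615491-45615740, the 250 bases before the annotated start, and no annotated exon overlaps it. Capitals mark a match to TGATGNAA on the opposite strand, the letters bound by C/EBP-ATF dimers, at 139 to 132 bases before the start, and a match to CACGTG, the E-box core, at 50 to 45 bases before it.
Fgf21: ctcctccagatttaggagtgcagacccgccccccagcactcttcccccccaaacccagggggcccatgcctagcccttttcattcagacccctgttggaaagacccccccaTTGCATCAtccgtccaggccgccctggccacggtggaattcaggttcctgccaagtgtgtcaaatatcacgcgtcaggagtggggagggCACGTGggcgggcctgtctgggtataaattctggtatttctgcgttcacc

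The same table held windows for 8 of the 10 members, 13 windows in all, each of 300 bases from 250 before to 50 after a start, and both strands were searched for 5 motifs. Fst and Leap2 had no entry. A member counts if any of its windows held the motif, whereas the shares are over single windows, so the 2 are not like for like. TGATGNAA was in windows of 2 members, Fgf21 and Inhbe, and in 3.97% of all 32851 windows. CACGTG was in windows of 3 members, Fgf21, Igfbp2 and Gdf15, and in 7.15% of all. TGTTTAC, a forkhead element, was in windows of Selenop and Fetub and in 3.65% of all windows. TGACGT, the core of the cAMP element, was in 7.51% of all windows, and the pair of nuclear receptor half-sites AGGTCANAGGTCA in 0.0396%. Neither was in a window of a member. At so low a share no match of the pair was likely in 13 windows, and nothing is read from its absence. In the members no match overlapped another. In 11 of the 13 windows the bases just after the start matched a GENCODE M21 transcript of the gene. The windows without such a match were those that held the E-box of Igfbp2 and the forkhead element of Fetub.
Sites of the first 2 motifs in Fgf21, Inhbe and Igfbp2 are set out so that their flanks can be compared, each with 10 bases on either side and the match in capitals. The match in Gdf15, at 83 to 78 bases before a start, lies in a window that overlaps an exon of Gdf15 and is given by position only. The Inhbe window likewise overlaps an annotated exon of Inhbe, whereas the windows of the Fgf21 and Igfbp2 sites overlap none. They lie at chr7:45615612-45615639 (minus strand) in Fgf21, at chr10:127352012-127352039 (minus strand) in Inhbe, at chr7:45615525-45615550 (minus strand) in Fgf21 and at chr1:72824328-72824353 (plus strand) in Igfbp2.
Fgf21 C/EBP-ATF: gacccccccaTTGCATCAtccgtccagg
Inhbe C/EBP-ATF: atcctctttcTTGCATCAtgcatgtcca
Fgf21 E-box: gtggggagggCACGTGggcgggcctg
Igfbp2 E-box: tgtgcacaagCACGTGccctcacgca
Fgf21 and Inhbe share the same 8 letters, at 181 to 174 bases before the start in Inhbe, and their levels between the groups differed in size, as given for Inhbe further on. A match describes letters only, and nothing about binding was measured.

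Leap2 (ENSMUSG00000036216) encodes a small liver and gut peptide that opposes ghrelin, the hunger hormone of the stomach. Its values were 47.4, 34.0, 35.8, 41.2 and 33.3 FPKM in control libraries 1 to 5. They were 117.1, 68.5, 71.4, 73.9 and 114.2 FPKM in labelled knockdown libraries 1 to 5. The groups did not overlap, and libraries 1 and 5 of the labelled knockdown stood apart above the other 3. The means were 38.3 ± 5.95 and 89.0 ± 24.4 FPKM (SD, n = 5 each), a ratio of 2.32, and the log2 difference was 1.17 with a standard error of 0.17. Its transcript is short, 531 bases in GENCODE M21 against 951 for Fgf21, and with the length trend removed the log2 difference was 1.0. It lay between 1.06 and 1.25 when each library was left out in turn.

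The authors' deposited table marks 398 genes, 1.34% of all, as significant, Fgf21 and Leap2 among them but no other member. From the same 10 libraries and contrast, so not as separate support, the authors' deposited table gives Fgf21 a q-value of 0.000837 and Leap2 one of 1.18e-08. It gives Igfbp1 a q-value of 0.0471 at a ratio of 1.45 and does not mark it, and Gdf15 one of 0.0585.

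Gdf15 (ENSMUSG00000038508) encodes a stress-induced member of the TGF-beta family. Control libraries 1 to 5 held 66.6, 54.9, 39.8, 47.2 and 19.1 FPKM. The labelled knockdown values were 67.9, 43.3, 63.8, 99.6 and 99.0 FPKM, in the same numbering. The groups overlapped, since 3 labelled knockdown libraries were above the highest control and library 2 was below the control mean. The means were 45.5 ± 17.8 and 74.7 ± 24.3 FPKM (SD, n = 5 each), with a log2 difference of 0.75 and a standard error of 0.32, and Gdf15 was not called. Control 5 was the lowest library, and without it the log2 difference was 0.47, and with array weights 0.49.

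Inhbe (ENSMUSG00000047492) encodes the subunit of activin E, a liver signal to fat tissue. Its levels were 25.2, 15.1, 23.8, 15.5 and 7.09 FPKM in control libraries 1 to 5 and 15.5, 17.1, 16.2, 20.7 and 18.3 FPKM in labelled knockdown libraries 1 to 5. The labelled knockdown libraries all lay within the range of the controls. The means, 17.3 ± 7.37 and 17.6 ± 2.07 FPKM (SD, n = 5 each) differed by less than either SD, and the log2 difference of 0.12 had a standard error of 0.26 and a 95% interval from -0.46 to 0.70. It was -0.14 without control 5, 0.28 without control 1 and 0.26 without control 3. The control libraries varied more, with a coefficient of variation of 42.5% against 11.8%.

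Fst (ENSMUSG00000021765), which encodes follistatin, was the lowest of the 10 and stood near the filter. Its FPKM values were 0.592, 1.62, 2.33, 0.902 and 1.08 in control libraries 1 to 5 and 0.680, 0.819, 0.988, 1.04 and 0.602 in labelled knockdown libraries 1 to 5. All 5 labelled knockdown libraries were below the control mean, and all lay within the control range. The means were 1.3 ± 0.682 and 0.825 ± 0.188 FPKM (SD, n = 5 each). The log2 difference was -0.29 with a standard error of 0.17, a scale that understates differences at such low levels, and it was -0.49 with a pseudocount of 0.1. Without control 3, the highest library, it was -0.15.

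**Figure D2:**
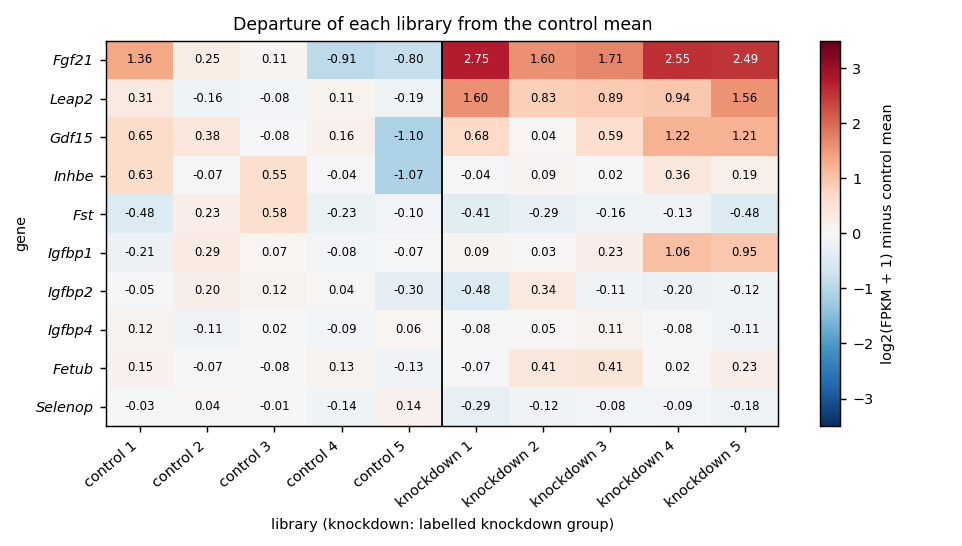
Departure of each library from the control mean of the gene, on the log2(FPKM + 1) scale, for the 10 liver hormone genes in rows and the 10 libraries in columns, with red above and blue below the control mean. Fgf21 has the widest span, control 1 is the highest control for 6 genes, and control 5 is the lowest control for 5 genes.

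Igfbp1 (ENSMUSG00000020429) encodes the IGF-binding protein that insulin lowers most sharply. Control libraries 1 to 5 held 479, 677, 581, 521 and 527 FPKM. Those of the labelled knockdown were 589, 566, 650, 1152 and 1069 FPKM. All 5 labelled knockdown libraries were above the control mean, but only libraries 4 and 5 were above the highest control. The means were 557 ± 76.1 and 805 ± 282 FPKM (SD, n = 5 each). The log2 difference was 0.47 with a standard error of 0.21, and Igfbp1 was not called.

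Igfbp2 (ENSMUSG00000039323), the binding protein of the fasting and low-insulin state, ranged from 599 to 847 FPKM in the controls (median 758) and from 529 to 934 FPKM in the labelled knockdown (median 678). Its means were 744 ± 95.1 and 694 ± 148 FPKM (SD, n = 5 each), and the log2 difference was -0.12 with a 95% interval from -0.44 to 0.21. It was -0.066 without control 2, -0.19 without control 5, -0.024 without labelled knockdown 1 and -0.23 without labelled knockdown 2. Library 2 held the highest value of the labelled knockdown and library 1 the lowest. Igfbp4 (ENSMUSG00000017493), a binding protein known to restrain IGF action, was the steadiest member. It ranged from 225 to 264 FPKM in the controls and from 224 to 263 FPKM in the labelled knockdown, with coefficients of variation of 7.0% and 6.9%. Its log2 difference was -0.02, with a 95% interval from -0.20 to 0.16, and it was 0.07 with the length trend removed.

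Fetub (ENSMUSG00000022871) encodes fetuin-B, an inhibitor of meprin proteases. Its values were 223, 191, 190, 219 and 183 FPKM in control libraries 1 to 5 and 192, 267, 267, 204 and 235 FPKM in labelled knockdown libraries 1 to 5. Libraries 2, 3 and 5 of the labelled knockdown were above every control, and libraries 1 and 4 were within the control range. The means were 201 ± 18.4 and 233 ± 34.8 FPKM (SD, n = 5 each), with a log2 difference of 0.20 and a standard error of 0.11. Selenop (ENSMUSG00000064373) encodes selenoprotein P, the carrier that takes selenium from liver to other organs. It held 2276, 2398, 2306, 2110 and 2560 FPKM in control libraries 1 to 5 and 1900, 2144, 2194, 2180 and 2047 FPKM in labelled knockdown libraries 1 to 5. Libraries 1 and 5 of the labelled knockdown were below every control. The means were 2330 ± 165 and 2093 ± 122 FPKM (SD, n = 5 each), and the log2 difference was -0.15 with a standard error of 0.10. Selenop was not called, but with quantile normalization the log2 difference was -0.34 and it was called lower.

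**Figure D3:**
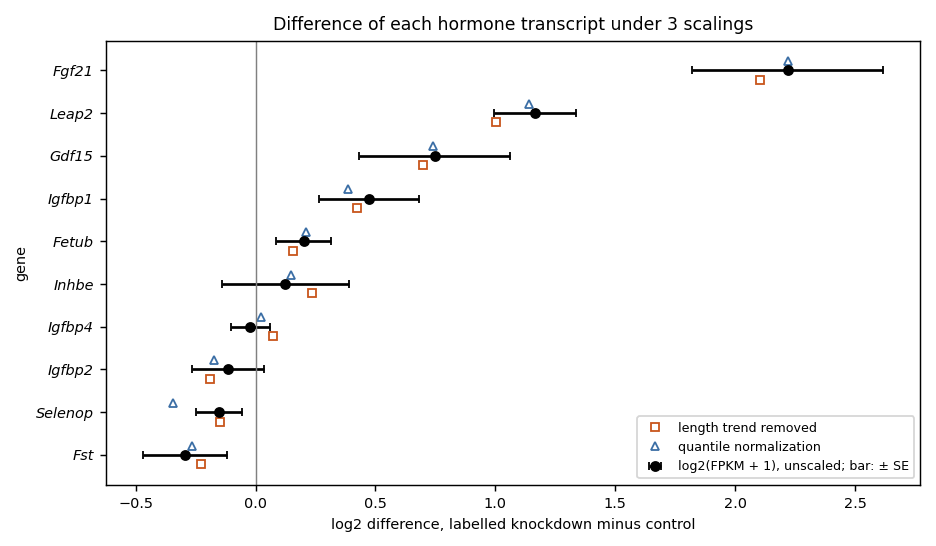
Log2 difference, labelled knockdown minus control, on the log2(FPKM + 1) scale for each of the 10 liver hormone genes, as black points with bars of 1 standard error, and as open symbols with the length trend removed or with quantile normalization. Fgf21 at 2.22 and Leap2 at 1.17 lie farthest from 0 and stay above it under all 3, and Igfbp4 at -0.02 lies closest, with open symbols on the other side of 0.

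The members did not keep a common order within a group. Of the control libraries, control 1 was the highest for 6 members, namely Fgf21, Leap2, Gdf15, Inhbe, Igfbp4 and Fetub, and the lowest for Fst and Igfbp1. Control 5 was the lowest for 5 members, namely Leap2, Gdf15, Inhbe, Igfbp2 and Fetub, and the highest for Selenop. In the labelled knockdown, library 1 was the highest for Fgf21 and Leap2 and the lowest for Inhbe, Igfbp2, Fetub and Selenop. Library 2 was the lowest for Fgf21, Leap2, Gdf15 and Igfbp1, and library 4 the highest for Gdf15, Inhbe, Fst and Igfbp1.

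Tested genes were ranked by how closely they followed Fgf21 or Leap2, leaving out Gm-number, Rik and pseudogene symbols and genes without a symbol. Of the genes ranked, those whose levels followed Fgf21 most closely over the 10 libraries were Zfand2b, Ddit4, Gadd45a, Inhba and Pbx4. Their Pearson r was 0.987, 0.978, 0.970, 0.955 and 0.947 on the log2(FPKM + 1) scale. With the group means removed r was 0.949, 0.921, 0.911, 0.829 and 0.817. For Leap2 they were Nkiras1, Ccdc107, Ndufc1, Micos10 and Tmem258, with r of 0.987, 0.980, 0.978, 0.974 and 0.973, and 0.941, 0.888, 0.881, 0.844 and 0.890 with the group means removed. The 2 sets had no gene in common. The genes were picked for the highest r, so r with the group means removed is not free of that choice. The 10 points also share their libraries, their depth and, before removal, the difference between the groups. These r values are therefore a description.

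The receptors and partners of the hormones were taken from lists of other genes. Over all tested genes 7.13% were called higher and 9.65% lower, and the counts of every list below stand beside those shares. For FGF21 the list held 11 tested genes, which were Klb, Fgfr1 to Fgfr4, the decoy receptor gene Fgfrl1, the ligand gene Fgf1, the adaptor gene Frs2 and the feedback genes Spry2, Spry4 and Dusp6. Of the 11, 0 were higher and 1 was lower, Klb, which encodes beta-Klotho, at 4.5 ± 0.621 FPKM in the controls and 3.13 ± 0.725 in the labelled knockdown (log2 difference -0.43, adjusted p = 0.0489 in limma). The call on Klb held in only 1 of 10 fits that left out a library, the one without labelled knockdown 3, and in 2 of 10 other settings, with an adjusted p of up to 0.136. Fgfr4, the main FGF receptor of hepatocytes, was at 14.3 ± 2.97 and 13.5 ± 0.869 FPKM, and Fgfr1, Fgfr2 and Fgfr3 had log2 differences of -0.05, 0.04 and 0.0025, none of them called. Kl was at or below 0.0057 FPKM in every library. For ghrelin and GDF15 the 4 tested genes were no receptors but the proprotein convertases Furin, Pcsk5 and Pcsk6 and the esterase Bche, which cleaves the acyl group of ghrelin. Of these 0 were higher and 1 was lower, Pcsk6, at 14.4 ± 1.40 and 11.1 ± 1.6 FPKM (log2 difference -0.35, adjusted p = 0.0358 in limma). That call held in 3 of 10 fits that left out a library, those without control 1, control 4 or labelled knockdown 4, with an adjusted p of up to 0.0866. Ghrl, the ghrelin gene, and Ret, the GDF15 co-receptor, did not exceed 0.107 and 0.0192 FPKM, and Ghsr and Gfral were not analysed here.

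Of 16 tested genes of the activin and follistatin axis, 1 was higher and 3 were lower, beside 7.13% and 9.65% of all tested genes. The median log2 difference was -0.17, beside -0.04 over all genes. Inhba, which encodes the subunit of activin A, was at 2.47, 2.0, 1.47, 1.31 and 1.03 FPKM in control libraries 1 to 5 and at 5.42, 3.04, 3.47, 4.25 and 6.62 FPKM in labelled knockdown libraries 1 to 5, without overlap. Its log2 difference was 1.05 with a standard error of 0.19 (adjusted p = 0.00947 in limma), and it was called in all 10 fits that left out a library. Smad2 and Smad4, which carry activin signals to the nucleus, were lower by log2 differences of -0.51 and -0.44 (adjusted p = 0.0108 and 0.0147 in limma). Fstl1, a follistatin-like secreted protein, was lower by -0.55 (adjusted p = 0.0333), a call lost in 5 of 10 fits that left out a library, those without control 1 or 2 or labelled knockdown 2, 3 or 5, with an adjusted p of up to 0.0787. The receptors Acvr1b and Acvr2a had log2 differences of -0.09 and -0.05 and were not called, and Inhbc, the neighbour of Inhbe in the family, stood at 34.7 ± 4.76 and 31.3 ± 5.51 FPKM.

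Among 11 tested genes of the IGF axis 0 were higher and 1 was lower, beside 7.13% and 9.65% of all tested genes. Igf2r, the receptor that clears IGF2, was at 6.19 ± 0.726 FPKM in the controls and 4.17 ± 0.642 in the labelled knockdown (log2 difference -0.48, adjusted p = 0.015 in limma), and was called in all 10 fits that left out a library. Igf1, the main ligand held by the IGF-binding proteins, was at 25.6 ± 4.51 and 22.7 ± 2.06 FPKM and was not called (log2 difference -0.15). Insr was not called either, with a log2 difference of -0.03. Igf2 and Igf1r did not exceed 0.0265 and 0.358 FPKM. Of 25 tested genes for other selenoproteins and their handling, 2 were higher and 1 was lower, beside the same shares of all tested genes. Selenow and Txnrd2 were higher by 0.31 and 0.30 and Txnrd1, a thioredoxin reductase, was lower by -0.29 (adjusted p = 0.035, 0.0241 and 0.038 in limma). The call on Txnrd2 was lost without control 3 or labelled knockdown 3, with an adjusted p of up to 0.0579. That on Selenow held without control 4 or labelled knockdown 2 or 4, and that on Txnrd1 without control 5 or labelled knockdown 4. The adjusted p otherwise reached 0.0822 and 0.0925. Lrp8, a receptor for selenoprotein P, did not exceed 0.116 FPKM. Of 6 tested genes of the fetuin and cystatin family, Ahsg, Hrg, Kng1, Kng2, Cst3 and Cstb, 0 were called, and the meprin genes Mep1a and Mep1b did not pass the filter on low values. Ahsg, which encodes fetuin-A, stood at 4642 ± 694 and 5211 ± 262 FPKM.

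**Figure D4:**
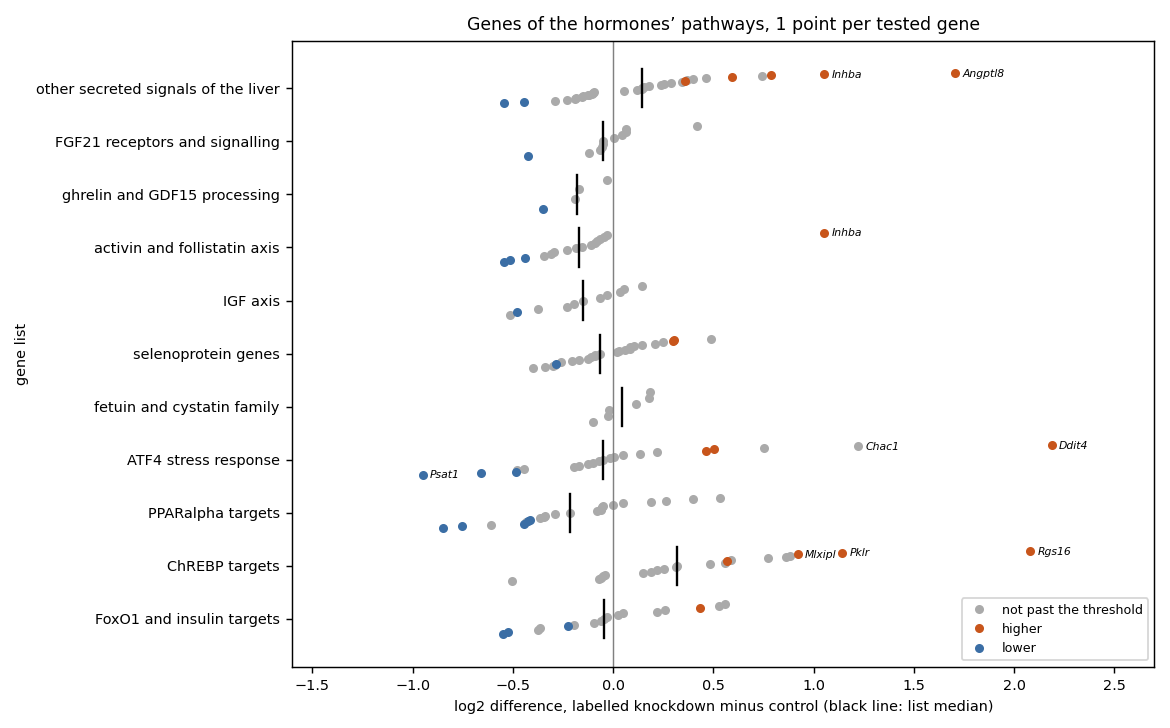
Log2 differences, labelled knockdown minus control, of the tested genes of each pathway list, 1 point per gene, with genes called higher in orange, genes called lower in blue, other genes in grey and a black line at the median of each list. The list medians run from -0.21 for PPARalpha targets to 0.32 for ChREBP targets, beside -0.04 over all genes.

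Several transcription programs are known from other work to act on these hormones, and each was described by its own list. Fgf21 is known as a target of PPARalpha, the fatty acid receptor, of ATF4, the factor of the integrated stress response, and of ChREBP, the sugar-responsive factor. Of 23 tested PPARalpha targets and partners 0 were higher and 5 were lower, beside 7.13% and 9.65% of all tested genes. Their median log2 difference was -0.21. Cpt1a, the gate to mitochondrial fatty acid oxidation, was at 48.2 ± 12.2 and 26.5 ± 7.46 FPKM, a log2 difference of -0.85 (adjusted p = 0.0183 in limma), and it was called in all 10 fits that left out a library. Ppara itself was at 8.88 ± 2.0 and 4.90 ± 1.48 FPKM (-0.75, adjusted p = 0.0224), lost without control 3 or labelled knockdown 5 with an adjusted p of up to 0.0545. Hadha was lower by -0.45 and Creb3l3 by -0.42. The call on Hadha was lost without control 2, 3 or 4 or labelled knockdown 3, and that on Creb3l3 held only without control 5, with adjusted p values of up to 0.074 and 0.1.

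Of 21 tested ChREBP targets and partners 4 were higher and 0 were lower, beside 7.13% and 9.65% of all tested genes. Their median log2 difference was 0.32. Mlxipl, which encodes ChREBP, was at 47.4 ± 9.14 and 90.7 ± 17.9 FPKM (log2 difference 0.92, adjusted p = 0.00944 in limma) and was called in all 10 fits that left out a library. Rgs16 was at 28.8 ± 30.9 and 97.7 ± 37.9 FPKM (2.08, adjusted p = 0.0183), with control 1 at 83.8 FPKM, above 2 of the labelled knockdown libraries, and the other controls at 9.95 to 19.997 FPKM. Control 1 was also the highest control for Fgf21. Pklr, the liver pyruvate kinase, was higher by 1.14 (adjusted p = 0.0369) and Tm6sf2 by 0.57 (adjusted p = 0.0397). The call on Pklr held without control 1 or 2 or labelled knockdown 2 or 4, and that on Tm6sf2 without control 1 or 5 or labelled knockdown 2. Otherwise the adjusted p reached 0.0833 and 0.0894.

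Of 21 tested genes of the ATF4 stress response 3 were higher and 3 were lower, beside 7.13% and 9.65% of all tested genes. Their median log2 difference was -0.05. Ddit4, an inhibitor of mTORC1, was at 23.1, 11.1, 13.3, 6.45 and 6.58 FPKM in control libraries 1 to 5 and at 86.8, 23.8, 35.9, 65.1 and 86.0 FPKM in labelled knockdown libraries 1 to 5. The groups did not overlap, and control 1 was again the highest control and library 2 the lowest of the labelled knockdown, as for Fgf21. Its log2 difference was 2.19 with a standard error of 0.40 (adjusted p = 0.0101 in limma). Atf4 was at 80.2 ± 5.94 and 113 ± 26.6 FPKM (0.46, adjusted p = 0.0455), a call that held without labelled knockdown 2 or 3 and reached an adjusted p of 0.0963 otherwise. Sesn2 was higher by 0.50 (adjusted p = 0.0348), a call that held without control 5 or labelled knockdown 2 and reached 0.0705 otherwise. Psat1, of serine synthesis, was at 8.09 ± 2.11 and 3.72 ± 1.22 FPKM (-0.95, adjusted p = 0.0133), and was called in all 10 fits that left out a library. Asns, the asparagine synthetase, was lower by -0.66 (adjusted p = 0.0308), a call that held without control 1 or 5 or labelled knockdown 3 or 4 and reached 0.0726 otherwise. Ddit3 and Chac1, a stress factor and a glutathione-degrading enzyme, had log2 differences of 0.75 and 1.22 and were not called (adjusted p = 0.0535 and 0.0554). Ddit3 was called without labelled knockdown 2 and with a minimum of 1 FPKM, median-of-ratios scaling or quantile normalization. Chac1 was called without control 2 and with either of those scalings. The adjusted p was down to 0.0195 and 0.0349.

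Igfbp1 is known as a target of FOXO1, which insulin excludes from the nucleus. Of 17 tested genes of the FoxO1 and insulin list, Foxo1 and Foxo3 among them, 1 was higher and 3 were lower. The shares over all tested genes were 7.13% and 9.65%. Apoc3, an inhibitor of lipoprotein clearance, was at 637 ± 66.8 and 868 ± 157 FPKM (log2 difference 0.43, adjusted p = 0.0386 in limma), a call that held without control 4 or labelled knockdown 4 and reached 0.0915 otherwise. Foxo3 and Sesn3 were lower by -0.55 and -0.53 (adjusted p = 0.00944 and 0.0133), each called in all 10 fits that left out a library. Foxo1 was at 2.77 ± 0.163 and 2.22 ± 0.0964 FPKM (-0.23, adjusted p = 0.0329), a call that held without control 4 or 5 or labelled knockdown 2 or 4 and reached 0.0785 otherwise.

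Of 32 tested genes for other signals that the liver secretes, 5 were higher and 2 were lower, beside 7.13% and 9.65% of all. Their median log2 difference was 0.14. Angptl8, an insulin-responsive inhibitor of lipoprotein lipase, was at 76.2 ± 51.7 and 230 ± 93.9 FPKM (log2 difference 1.71, adjusted p = 0.0174 in limma). Its groups overlapped, since control 1, at 162.7 FPKM, was above labelled knockdown 2, at 131.1 FPKM. The other controls were at 38.8 to 86.1 FPKM. Angptl6 was at 7.37 ± 1.21 and 11.7 ± 2.72 FPKM (0.59, adjusted p = 0.025). The call on Angptl6 was lost without control 2 or labelled knockdown 1, with an adjusted p of up to 0.0607. Inhba, described with the activins, was also among the higher genes. Agt, the angiotensin precursor, was at 297 ± 12.6 and 382 ± 26.0 FPKM (0.36, adjusted p = 0.0154), and was called in all 10 fits that left out a library. The lower genes were Fstl1 and Hgf, the hepatocyte growth factor, which stood at 1.10 ± 0.151 and 0.542 ± 0.163 FPKM (-0.45, adjusted p = 0.0116). Hgf lies near the filter, where the scale understates differences, and with a pseudocount of 0.1 its log2 difference was -0.93.

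Some of these calls on receptor, partner and pathway genes also ended under other settings. With no filter on low values, which adds genes to the adjustment, Angptl8, Cpt1a and Rgs16 had an adjusted p of 0.0538, 0.0529 and 0.0567, and the calls on Angptl6, Klb, Pcsk6, Fstl1, Selenow, Txnrd1, Asns, Sesn2, Atf4, Ppara, Hadha, Creb3l3, Pklr, Tm6sf2 and Apoc3 ended too. With the length trend removed the calls on Klb, Pcsk6, Selenow, Txnrd1, Hadha, Creb3l3, Tm6sf2, Apoc3, Foxo1 and Atf4 ended. Those on Klb, Pcsk6, Txnrd1, Hadha, Creb3l3, Apoc3 and Foxo1 ended with median-of-ratios scaling, those on Klb, Foxo1 and Atf4 with quantile normalization, and those on Klb and Atf4 with array weights. That on Klb also ended with pseudocounts of 0.1 and 0.5. The calls on Inhba, Ddit4, Psat1, Mlxipl, Smad2, Smad4, Igf2r, Foxo3, Sesn3, Agt and Hgf held in every one of these settings.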

How the data were processed

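Poly(A) RNA from 10 liver samples was sequenced with strand-marked libraries, per the labels' protocols. Cutadapt 1.9, HISAT2 2.0.4 and StringTie 1.3.4d are listed per the submitters' processing notes. GRCh38, the build in those notes, is human, although the table holds mouse identifiers. Which mouse build was used is not known. The authors deposited FPKM per gene and library, a ratio of group means (fold) with its log2, and p-values and q-values. Total counts are not known, so depth is given only as 21653 to 23079 genes above 0 per library. Low FPKM values were not turned back into counts.

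Libraries were grouped by title, 5 in each group. Genes at 0.5 FPKM or more in at least 5 libraries were fitted with limma 3.58.1 in R 4.3.3 on log2(FPKM + 1), with a mean-variance trend, no scaling and no covariates, and called at a Benjamini-Hochberg adjusted p under 0.05. The script was tested on simulated data. The hormone genes, the gene lists and the tests were chosen with earlier results of these data known. Of 296 list symbols, 290 matched, and G6pc was matched as G6pc1 by identifier. The text names, by rule, up to 4 called genes with the largest difference in each list, the members' receptors and ligands, and the 5 genes most like Fgf21 and Leap2 in pattern, but 1 gene that this rule takes is not reported here. Atf4, Ddit3, Chac1, Agt and Hgf, and the marker lists' summed levels and medians, were named after their values were seen. Lengths are those of GENCODE M21, matched by identifier for 13187 tested genes. The length trend was removed with a spline of 4 degrees of freedom in each library. Other settings were pseudocounts of 0.1 and 0.5, no filter, a minimum of 1 FPKM, median-of-ratios and quantile scaling, array weights, no trend, a replicate block and leaving out each library.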

Additional observations from a re-analysis of the deposited data

Results flagged for a closer look

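In 6 of 120 sets of 5 libraries of 1 gene, a single library lay far from the other 4, and chance gives about 1 in 20. None was a hormone gene. Sesn2 was at 3.86 FPKM in control 5, with the other controls at 5.83 to 6.26. Hadha was at 18.6 FPKM in labelled knockdown 1, with the others at 27.4 to 28.6. Foxo1 was at 2.49 FPKM in control 4 (others 2.79 to 2.89), and Acvr1b at 2.54 FPKM in labelled knockdown 5 (others 3.64 to 4.18). Ndufc1, a gene like Leap2 in pattern, was at 11.4 FPKM in control 4 (others 10.6 to 10.8), and Hgf at 1.36 FPKM in control 3 (others 1.003 to 1.04).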

How the results depend on the processing

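The members were picked on this contrast, so repeated calls in the same 10 libraries are a description and not further support. Fgf21 and Leap2 were called higher in all 10 other settings and in all 10 fits that left out a library. Their log2 differences in the other settings were 1.93 to 2.26 and 1.0 to 1.21. With quantile normalization 1 member, Selenop, was called lower. Over the whole table the number of genes called higher, 960, was 511 with no filter and 442 to 966 when a library was left out. The number called lower, 1300, was 682 with no filter, 2047 with array weights, 720 with the length trend removed and 549 to 1736 when a library was left out. Calls were 42.5% higher, but 54.3% with median-of-ratios scaling (1212 higher, 1020 lower) and 55.4% with the length trend removed. Of 170 tested pathway genes 15 were called higher and 19 lower, beside 7.13% and 9.65% of all tested genes. The higher count was 5 with no filter and 8 to 18 when a library was left out, and the lower count was 8 with no filter, 11 with median-of-ratios scaling and 9 to 19 when a library was left out. Small differences changed sign. With the length trend removed Fgfr1 was 0.056, Fgfr4 0.028, Acvr1b 0.013, Acvr2a 0.067 and Insr 0.079. Insr was 0.0071 with median-of-ratios scaling, 0.0034 with quantile normalization and 0.018 with array weights, and Fgfr3 was -0.0903 and Inhbe -0.05 with array weights. When a library was left out, Fgfr1 ran from -0.133 to 0.0627, Fgfr2 from -0.0448 to 0.116, Fgfr3 from -0.117 to 0.176, Fgfr4 from -0.184 to 0.0056, Insr from -0.0656 to 0.0105 and Inhbe from -0.143 to 0.281. The cause of these changes was not tested. With a replicate block 769 genes were higher and 986 lower, with 2 and 0 members, and the calls on Klb, Pcsk6, Selenow, Txnrd2, Txnrd1, Sesn2, Pklr, Apoc3 and Foxo1 were not made. Libraries with the same number correlated at -0.01 to 0.11 and 1 of 5 control libraries correlated best with its own number. These values gave no sign of pairing by number, but so few correlations cannot exclude a shared litter, day or batch. Without counts, the depth behind a value, and so the precision of low levels such as Fst, is not known.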
